A study of Mus musculus with 4 samples.

Results

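Polycomb repressive complex 1 (PRC1) was followed through 9 of its genes in cells sorted as astrocytes from the mouse cortex, with Ezh2 floxed or conditionally knocked out. The genes were Cbx2, Cbx6, Cbx7, Cbx8, Bmi1, Pcgf2, Ring1, Rnf2 and Phc1, taken by name, and all 9 were found among the 29224 genes of the count table. RNA was sequenced from the cerebral cortex of mice at postnatal day 5, from cells held back on anti-GLAST (ACSA-1) magnetic beads, which bind a glutamate transporter on the astrocyte surface. The Ezh2 f/f group (2 libraries) carried floxed Ezh2 alleles, and the Ezh2 cKO group (2 libraries) carried the same floxed alleles with the Aldh1l1-icre transgene, in which an astrocyte promoter drives Cre recombinase. The comparison asked what loss of Ezh2 in these cells did to gene expression. How many animals stood behind a library was not given in the sources used here, so the p-values measure the spread between these 4 libraries, which may be technical.

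PRC1 is one of the main Polycomb complexes of chromatin. RING1 and RNF2 (also called RING1B) are the ubiquitin ligases that mark histone H2A, and a PCGF protein such as BMI1 or PCGF2 pairs with either of them and decides which kind of PRC1 is built. In canonical PRC1, a CBX protein reads the methyl mark that EZH2, the enzyme of Polycomb repressive complex 2, places on lysine 27 of histone H3, and a PHC protein joins complexes to each other by its polymerising domain. Variant PRC1 holds RYBP or YAF2 in place of CBX and PHC. In the developing brain, Polycomb genes are known for keeping progenitors dividing and for holding other lineages' genes silent.

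The libraries held 17522152 and 16273308 counts in Ezh2 f/f, against 17330230 and 16678309 in Ezh2 cKO, at which 3 counts, the limit that a count of 0 allows, come to between 0.170 and 0.191 CPM (the count scaled to the library size). Ezh2 itself had 434 and 327 counts in Ezh2 f/f, against 211 and 164 in Ezh2 cKO, with a log2 fold change of -1.11 (SE 0.16, edgeR adjusted p = 3.26e-05), so RNA of the gene remained. Mitochondrial genes took 1.68% and 2.07% of the counts in Ezh2 f/f, against 3.01% and 3.02% in Ezh2 cKO. Of the 16793 genes that passed the filter on low counts, 5831 were higher and 5650 lower in the Ezh2 cKO group (adjusted p under 0.05), so most genes were called. A positive fold change is a higher level in Ezh2 cKO.

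Most PRC1 genes fell in Ezh2 cKO and a single one rose. Cbx2, Pcgf2 and Phc1 were 5.76-fold, 4.37-fold and 4.08-fold lower, Bmi1, Cbx7, Rnf2 and Cbx8 fell by less than 2-fold, Cbx6 rose 3.10-fold, and Ring1 did not pass the test. All 9 members passed the filter. The 7 genes called lower stood beside 33.6% of all tested genes called lower, and the 1 called higher beside 34.7% called higher, 68.4% being called in either direction. At a change of at least 2-fold, 3 members were lower, beside 14.0% of all tested genes, and 1 was higher, beside 19.0%. In all 9 members the CPM of the groups did not overlap, Ring1 included, as in 84.3% of tested genes, so this separation was common in the table. The median log2 fold change over the 9 members was -0.75, against 0.02 over all tested genes. In bulk RNA, fewer cells of a type and less RNA per cell cannot be told apart, and in the Ezh2 cKO libraries the summed markers of immature neurons and of cycling cells were lower, while those of astrocytes, oligodendrocytes and their precursors, microglia and neurons as a whole were higher. Neural progenitor markers were mixed, with 3 higher and 7 lower of 12.

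**Figure D1:**
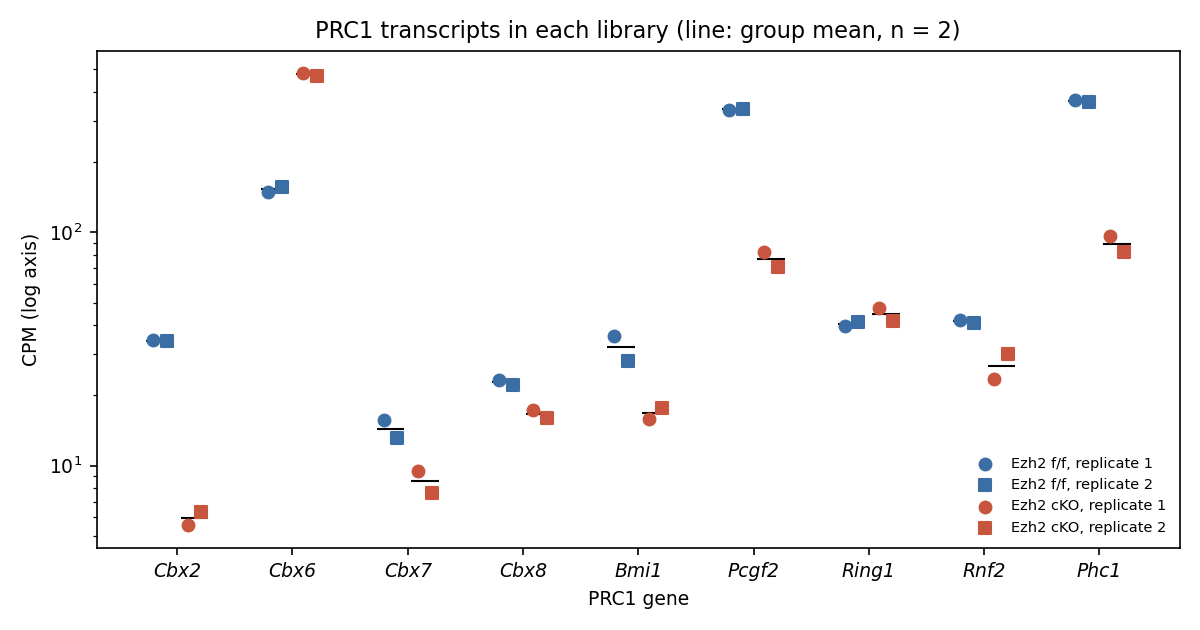
CPM of the 9 PRC1 genes in each library, on a log axis, with 1 point per library for Ezh2 f/f (2) and Ezh2 cKO (2) and a bar at each group's mean. Cbx2, Pcgf2 and Phc1 sit far lower in Ezh2 cKO, Cbx6 sits higher at 479.6 and 469 against 149 and 157 CPM, and the points of Ring1 lie close together.

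The CBX genes encode the chromodomain subunits that bring canonical PRC1 to methylated histone H3. Cbx2 (ENSMUSG00000025577), the paralogue known for compacting chromatin and for its place in progenitors and sex development, was at 34.5 and 34.1 CPM in Ezh2 f/f, against 5.56 and 6.35 CPM in Ezh2 cKO. Both Ezh2 cKO libraries lay far under both controls (log2 fold change -2.53, SE 0.14, edgeR adjusted p = 3.59e-09). Only 2.04% of all tested genes had a lower fold change. Cbx8 (ENSMUSG00000025578) was at 23.2 and 22.3 CPM in Ezh2 f/f, against 17.4 and 16.0 CPM in Ezh2 cKO, a fall with a log2 fold change of -0.45 (SE 0.13, edgeR adjusted p = 0.00783). It was the smallest of the 7 falls, and it was no longer called when replicate 2 of Ezh2 cKO was left out (log2 fold change -0.39, adjusted p = 0.0794; adjusted p over the 13 alternatives 0.00408 to 0.0794). These genes are neighbours: in the deposited coordinates Cbx2 spans chr11:118913788-118922096 on the plus strand and Cbx8 chr11:118927131-118931795 on the minus strand, with 5034 bases and no gene wholly between them. Neighbours thus fell by unequal amounts.

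Cbx6 (ENSMUSG00000089715), a less studied chromodomain paralogue, was the only member that rose. Its level was 149 and 157 CPM in Ezh2 f/f, against 479.6 and 469 CPM in Ezh2 cKO, a mean of 153 ± 5.05 against 475 ± 7.17 (SD, n = 2). The log2 fold change was 1.63 (SE 0.08, edgeR adjusted p = 1.54e-09), and 89.8% of tested genes had a lower one. It kept this direction in each of 13 alternative fits, with log2 fold changes from 1.60 to 1.72. Cbx7 (ENSMUSG00000053411), best known for silencing the Ink4a/Arf locus with Bmi1, moved the other way. It had 15.7 and 13.1 CPM in Ezh2 f/f, against 9.53 and 7.68 CPM in Ezh2 cKO, with a log2 fold change of -0.75 (SE 0.17, edgeR adjusted p = 0.00170). That fall was not called by limma on log2(FPKM + 1) without a filter (-0.42 on that scale, adjusted p = 0.0838; adjusted p over the 13 alternatives 9.51e-06 to 0.0838). Cbx6 (chr15:79708097-79718889, minus strand) and Cbx7 (chr15:79800008-79855320, minus strand) lie 81118 bases apart with 2 genes wholly between them. Apobec3 (chr15:79775860-79800107), on the other strand, lies mostly in this gap and overlaps the 3′ end of Cbx7. It had 47 and 47 counts in Ezh2 f/f, against 57 and 54 in Ezh2 cKO. Whether counting used strand is not stated, so reads from the overlap cannot be told apart.

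The PCGF genes encode the RING finger partners that define each form of PRC1, and BMI1 and PCGF2 are those of canonical PRC1. Pcgf2 (ENSMUSG00000018537, also called Mel18; chr11:97579649-97591323, minus strand) was the more abundant of them per length. It stood at 334 and 337 CPM in Ezh2 f/f, against 82.6 and 71.1 CPM in Ezh2 cKO. Both Ezh2 cKO values lay far under both controls (log2 fold change -2.13, SE 0.10, edgeR adjusted p = 5.60e-10), with 3.01% of tested genes below it. Bmi1 (ENSMUSG00000026739, also called Pcgf4; chr2:18681829-18691440, plus strand), needed for self-renewal of neural stem cells, stood at 36.0 and 28.2 CPM in Ezh2 f/f, against 15.9 and 17.7 CPM in Ezh2 cKO. Its log2 fold change was -0.94 (SE 0.14, edgeR adjusted p = 4.59e-05). The Ezh2 f/f libraries differed by more than the Ezh2 cKO libraries did, and the groups did not overlap.

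Of the catalytic RING subunits, one fell and the other did not pass the test. Ring1 (ENSMUSG00000024325; chr17:34239766-34243654, minus strand) had 39.6 and 41.3 CPM in Ezh2 f/f, against 47.4 and 41.6 CPM in Ezh2 cKO. Its second Ezh2 cKO library was close to the higher control, and the difference did not pass the test (log2 fold change 0.14, SE 0.10, edgeR adjusted p = 0.252), nor did it in any of 13 alternatives (log2 fold change 0.04 to 0.23). Rnf2 (ENSMUSG00000026484; chr1:151333755-151376706, minus strand), the main ligase of the pair in many cells, had 42.3 and 40.7 CPM in Ezh2 f/f, against 23.5 and 30.0 CPM in Ezh2 cKO. It fell with a log2 fold change of -0.63 (SE 0.12, edgeR adjusted p = 4.23e-04), a call lost in limma on log2(FPKM + 1) without a filter (-0.50, adjusted p = 0.0563; adjusted p over the 13 alternatives 1.73e-06 to 0.0563). Rnf2 overlaps Trmt1l on the other strand at its 3′ end, and Trmt1l rose (125 and 124 counts in Ezh2 f/f, against 363 and 332 in Ezh2 cKO). Trmt1l ends at chr1:151333912, so it reaches only into the outermost part of Rnf2, whose length behind the FPKM is 4127 bases. Any Trmt1l reads counted for Rnf2 in that stretch cannot be told apart here.

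Phc1 (ENSMUSG00000040669; chr6:122294690-122317520, minus strand), which encodes a polyhomeotic subunit that polymerises, was second only to Pcgf2 in FPKM in the controls. It stood at 368 and 362 CPM there and at 96.5 and 82.5 CPM in Ezh2 cKO. Here too the groups lay far apart (log2 fold change -2.03, SE 0.10, edgeR adjusted p = 7.55e-10), and 3.36% of tested genes had a lower fold change. Phc2, its more widely expressed paralogue, fell by less, with a log2 fold change of -1.08 (SE 0.09, edgeR adjusted p = 1.14e-07). Pcgf2 and Phc1 thus fell by nearly the same factor.

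**Figure D2:**
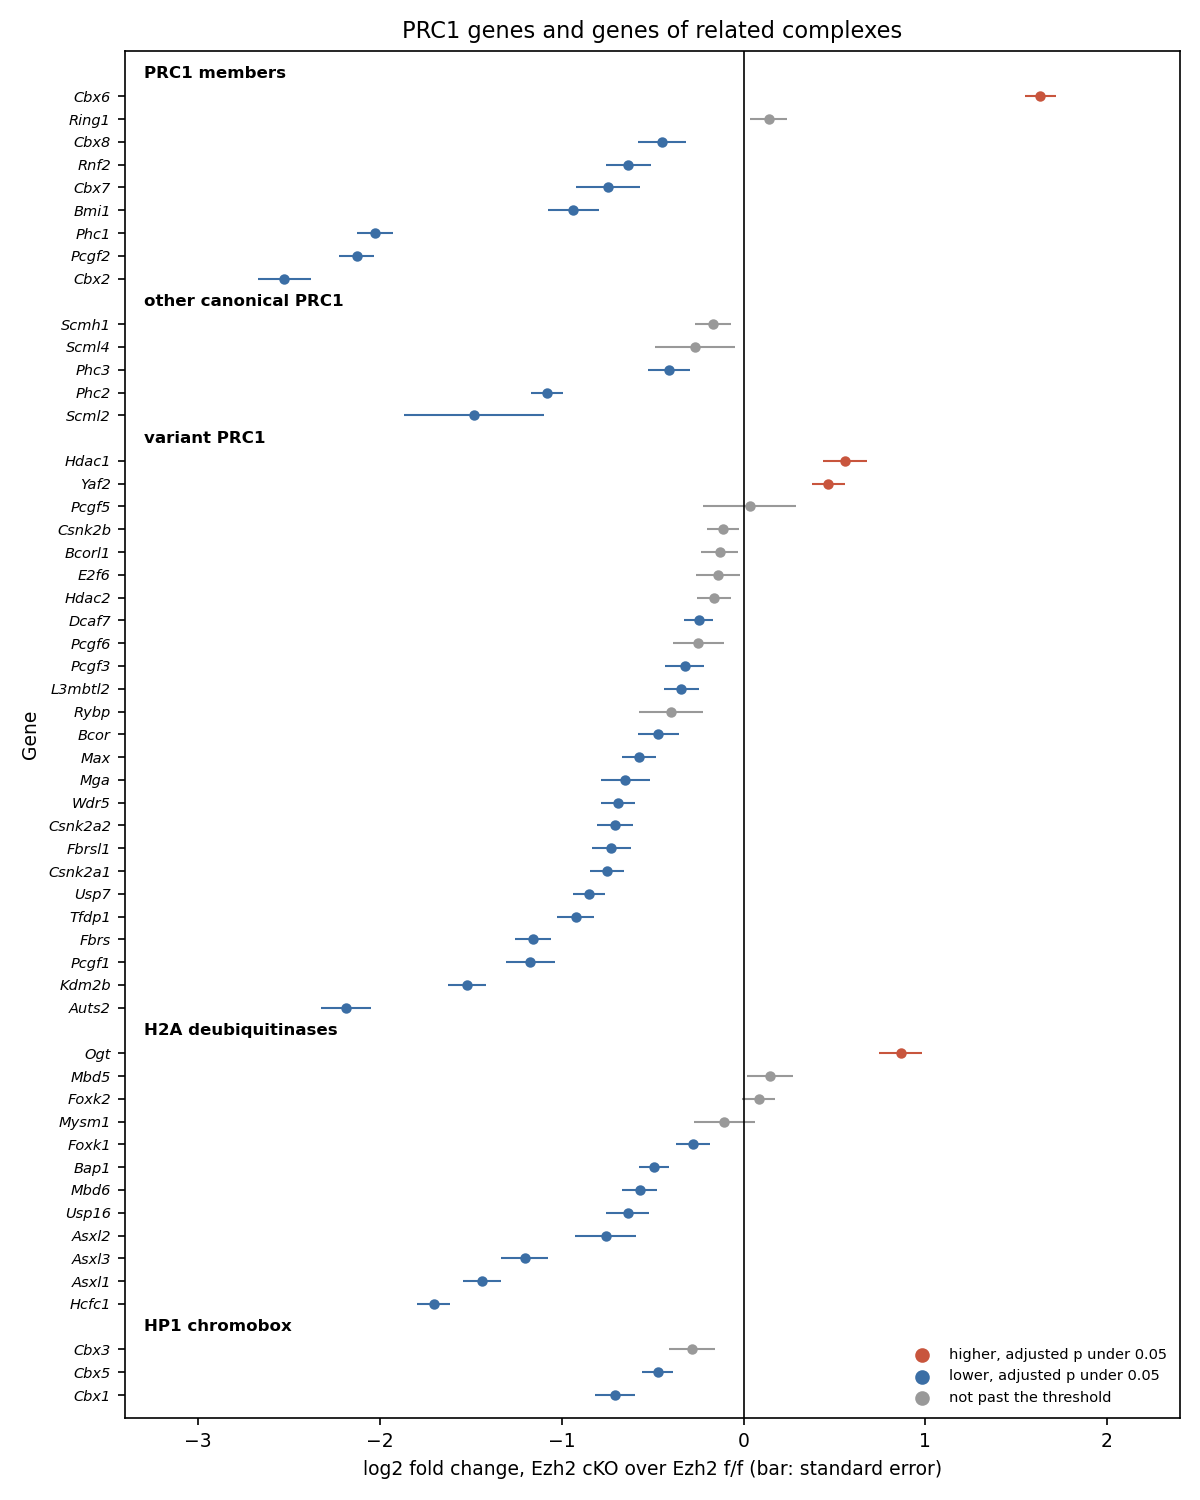
Log2 fold change of Ezh2 cKO over Ezh2 f/f for the PRC1 genes and related genes, with bars of 1 SE, derived from the edgeR F statistic. Cbx2, Pcgf2 and Phc1 lie beyond a 2-fold fall at -2.53, -2.13 and -2.03, Cbx6 lies alone among the 9 at 1.63, and Ring1 lies near 0.

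The promoters of the genes with the largest moves are shown because the genes moved in opposite directions. RefSeq gave 300 bases (250 before to 50 after the start) in GRCm38.p6 for 8 of the 9 members, all but Cbx2. Below are those of Cbx6 (chr15:79834284-79834583), Pcgf2 (chr11:97699599-97699898) and Phc1 (chr6:122340178-122340477), all read 5′ to 3′ on the minus strand, with each CG pair in capitals.
Cbx6: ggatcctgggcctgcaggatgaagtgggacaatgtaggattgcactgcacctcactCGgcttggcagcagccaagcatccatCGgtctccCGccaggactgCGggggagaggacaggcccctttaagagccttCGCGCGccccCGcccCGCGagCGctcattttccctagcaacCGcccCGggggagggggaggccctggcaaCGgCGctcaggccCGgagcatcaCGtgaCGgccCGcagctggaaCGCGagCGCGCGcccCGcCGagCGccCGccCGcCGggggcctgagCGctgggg
Pcgf2: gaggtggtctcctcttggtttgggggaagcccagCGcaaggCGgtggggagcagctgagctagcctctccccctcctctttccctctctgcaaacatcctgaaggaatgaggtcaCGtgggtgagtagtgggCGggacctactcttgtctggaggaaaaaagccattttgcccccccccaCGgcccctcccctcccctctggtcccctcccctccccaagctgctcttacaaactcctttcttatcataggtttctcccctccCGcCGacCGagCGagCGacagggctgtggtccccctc
Phc1: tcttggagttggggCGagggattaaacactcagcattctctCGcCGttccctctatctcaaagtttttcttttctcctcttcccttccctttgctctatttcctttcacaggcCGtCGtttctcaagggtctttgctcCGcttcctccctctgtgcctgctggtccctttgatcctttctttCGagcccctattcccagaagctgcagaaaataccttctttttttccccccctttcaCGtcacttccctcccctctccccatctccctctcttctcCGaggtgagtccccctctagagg
The Cbx6 window held 31 CG pairs, and those of Pcgf2 and Phc1 held 10 and 9. The ratio of observed to expected CG pairs was 0.805 for Cbx6, 0.362 for Pcgf2 and 0.534 for Phc1, against a median of 0.384 over 32851 promoters of this length. In the other 5 windows it ran from 0.708 in Bmi1 to 0.992 in Cbx7, so Pcgf2 and Phc1 were the lowest of the 8. Bmi1, Cbx7, Cbx8 (0.833) and Rnf2 (0.761) also fell, and the ratios of Cbx7 and Cbx8 were above that of Cbx6. CG pairs were counted after the values of the genes had been seen, and no test was made. E2F6 belongs to a variant PRC1, so its kind of site was searched as well, and 4 spellings of it (TTTGGCGC, TTTCGCGC, TTTCCCGC and TTTGCCGC, both strands) were in 0 of the 8 windows and in 744 of the 32851 (2.27%).

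Levels of different genes were compared per length, as FPKM, in which counts are scaled to gene length and to the library total. In Ezh2 f/f, Pcgf2 was highest at 92.4 FPKM, then Phc1 at 66.8, Cbx6 at 14.0, Ring1 at 12.1 and Rnf2 at 9.76. Bmi1 at 7.84 and Cbx2 at 7.82 overlapped in their libraries, and Cbx8 at 6.0 and Cbx7 at 2.16 followed. In Ezh2 cKO the order opened with Cbx6 at 46.0 FPKM, before Pcgf2 at 22.4, Phc1 at 17.4, Ring1 at 14.1 and Rnf2 at 6.67. Cbx8 at 4.66 overlapped Bmi1 at 4.35, and Cbx2 at 1.44 overlapped Cbx7 at 1.36. Cbx6 thus moved from the third place to the first, and Cbx2 fell to the level of Cbx7. The length behind the FPKM of Cbx6 is 10609 bases of a span of 10793, the longest of the 9 lengths, and FPKM of different genes rest on these lengths.

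The makeup of each family was set out after these values had been seen, and it has no test of its own. Among the 4 CBX members, Cbx6 made up 46.7% ± 1.62 of the summed FPKM in Ezh2 f/f, against 86.0% ± 0.371 in Ezh2 cKO (SD, n = 2). Cbx2 went from 26.1% ± 0.159 to 2.69% ± 0.305, Cbx8 from 20.0% to 8.72% and Cbx7 from 7.20% to 2.55%. Their sum was 30.1 and 29.8 FPKM in Ezh2 f/f, against 53.6 and 53.3 in Ezh2 cKO, so it grew by way of Cbx6 while the other members fell.

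The PCGF, RING and PHC families showed other patterns. Over 6 PCGF genes the sum went from 134 and 127 FPKM in Ezh2 f/f to 45.9 and 45.0 in Ezh2 cKO. Pcgf2 held 71.0% ± 2.53 and then 49.2% ± 3.85 of it. Of the variant complexes, Pcgf1 held 14.2% and then 19.2%, and Pcgf3 6.18% and then 15.0%. Bmi1 held 6.0% and then 9.58%. These larger shares were not higher levels: Pcgf1, Pcgf3 and Bmi1 had log2 fold changes of -1.17, -0.32 and -0.94. The fall of Pcgf1 was called (edgeR adjusted p = 3.39e-06). The fall of Pcgf3 (edgeR adjusted p = 0.0134) was not called in 7 of 13 alternatives, among them those without replicate 1 or 2 of Ezh2 cKO or replicate 1 of Ezh2 f/f (adjusted p = 0.119, 0.0614 and 0.133). Over the 3 PHC genes the sum went from 104 and 100.5 FPKM to 37.0 and 34.1, and Phc1 held 65.4% ± 0.410 and then 48.7% ± 1.88 of it. The 2 RING genes summed to 21.9 and 21.8 FPKM in Ezh2 f/f, against 20.7 and 20.9 in Ezh2 cKO, with Ring1 at 55.4% ± 1.39 and then 67.9% ± 5.79. In FPKM the ligase pair kept nearly the same sum while the partner families did not. In CPM, however, the RING sum fell, from 81.9 and 82.0 in Ezh2 f/f to 70.9 and 71.6 in Ezh2 cKO.

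**Figure D3:**
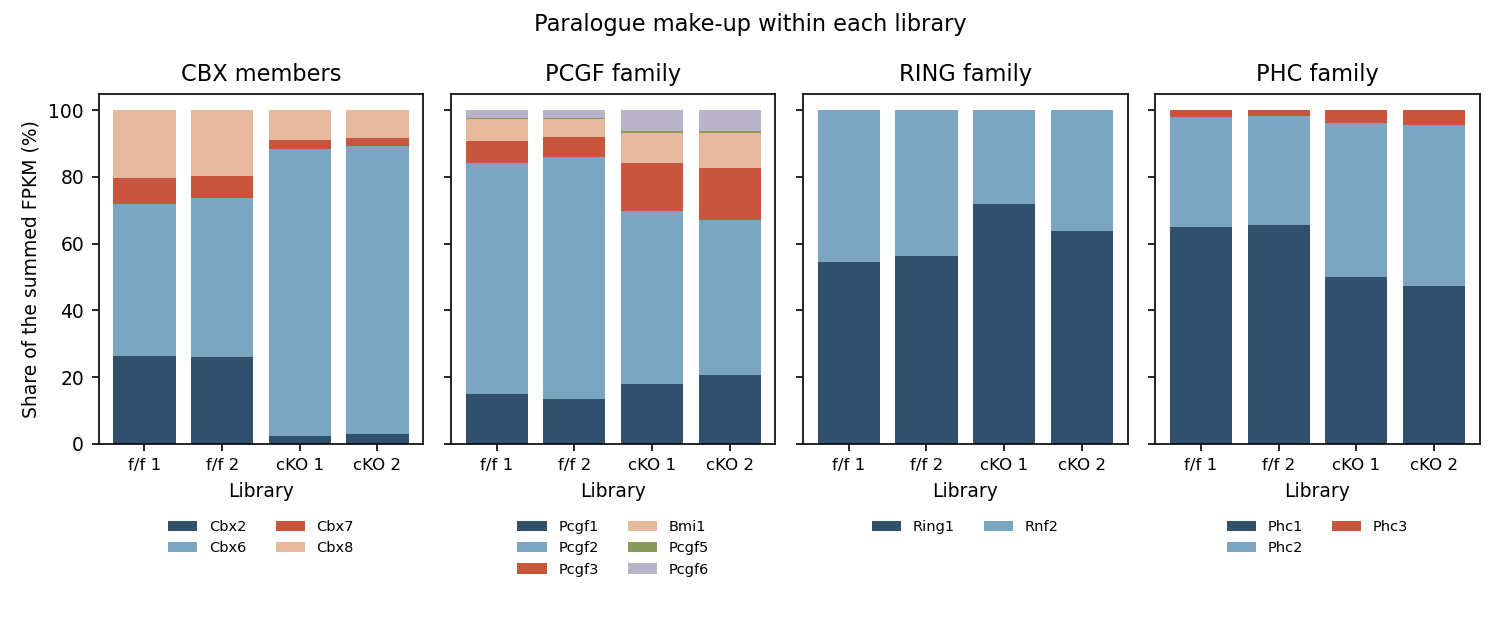
Share of each paralogue in the summed FPKM, in percent, as stacked bars with 1 bar per library, for the 4 CBX members and the PCGF, RING and PHC families. Cbx6 takes most of the CBX bars of both Ezh2 cKO libraries (85.8% and 86.3%), and the Cbx2 part shrinks to 2.48% and 2.91%.

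Ratios of paralogues within a library do not depend on its depth, and 9 pairs were compared. Cbx6 over Cbx2 was 1.74 and 1.84 in Ezh2 f/f, against 34.6 and 29.7 in Ezh2 cKO, in FPKM, a log2 difference of 4.16. This was the widest move of the 9 ratios. Cbx8 over Cbx2 went from 0.779 and 0.756 to 3.62 and 2.92, and Cbx7 over Cbx2 from 0.300 and 0.252 to 1.12 and 0.793. Against Cbx6, both Cbx7 and Cbx8 lost ground: Cbx7 over Cbx6 went from 0.172 and 0.137 to 0.0325 and 0.0267, and Cbx6 over Cbx8 from 2.23 and 2.43 to 9.57 and 10.2. Cbx7 over Cbx8 moved least, from 0.385 and 0.333 to 0.311 and 0.272, a log2 difference of -0.30. Bmi1 over Pcgf2 went from 0.0955 and 0.0741 to 0.171 and 0.221, so Pcgf2 stayed the more abundant in every library. Rnf2 over Ring1 went from 0.839 and 0.775 to 0.389 and 0.568, and Phc1 over Phc2 from 1.97 and 2.02 to 1.08 and 0.986. In no pair did the groups overlap, but with 2 against 2 libraries the exact two-sided permutation test gives p = 0.333 for each of them, which is the smallest it can give. Ratios of other gene pairs were not computed, so this count has no background, and 84.3% of single tested genes did not overlap either. The CBX ratios are all made from the same 4 genes, so the pairs are not separate observations.

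**Figure D4:**
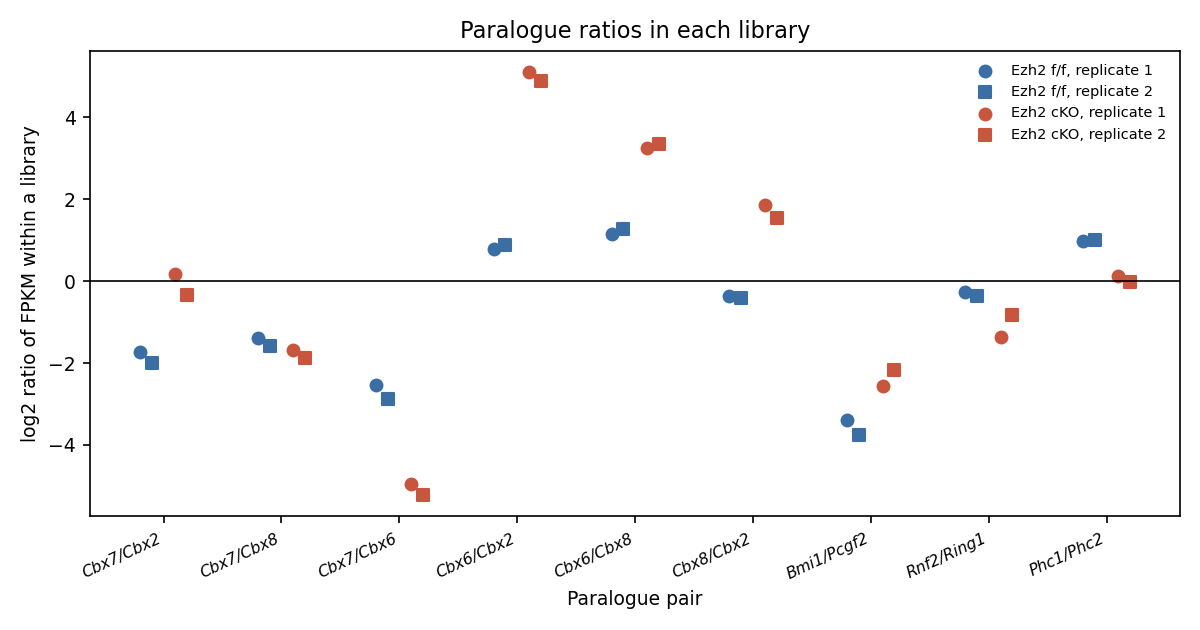
Ratio of the FPKM of paired paralogues in each library, on a log axis, with 1 point per library for Ezh2 f/f (2) and Ezh2 cKO (2). Cbx6 over Cbx2 shows the widest gap, from 1.74 and 1.84 to 34.6 and 29.7, and Cbx7 over Cbx8 the narrowest.

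The other subunits of canonical and variant PRC1, listed together with partner proteins, also held more falls than rises. Of 30 tested genes, 2 were higher, 19 lower (63.3%, beside 33.6% of all tested genes) and 9 did not pass the test, with a median log2 fold change of -0.44. In canonical PRC1, 0 of 5 rose and 3 fell, which were Phc2, Phc3 (log2 fold change -0.41) and Scml2 (-1.48, at 2.01 CPM in Ezh2 f/f). Without replicate 1 of Ezh2 cKO, Phc3 (adjusted p = 0.0780) and Scml2 (adjusted p = 0.0627) were not called. Limma on log2(FPKM + 1) did not call Phc3 either (adjusted p = 0.147), its adjusted p running from 7.59e-04 to 0.257 over 13 alternatives, against 0.00154 to 0.0627 over 10 for Scml2.

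Among genes of variant PRC1 and its partners, 16 of 25 fell and 2 rose, beside 33.6% and 34.7% of all tested genes. The falls of smallest p were in Auts2 (log2 fold change -2.19), a neurodevelopmental partner of PRC1, Kdm2b (-1.52), which brings variant PRC1 to unmethylated CG islands, Fbrs (-1.16), a relative of Auts2, and Usp7 (-0.85), a deubiquitinase. The 2 that rose were Yaf2 (0.47), the paralogue of Rybp, and Hdac1 (0.56), a histone deacetylase shared with many other complexes. Kdm2b went from 126 ± 9.72 to 44.0 ± 3.01 CPM and Yaf2 from 54.1 ± 0.564 to 74.7 ± 1.57 CPM (SD, n = 2).

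Other genes act in the opposing reaction, which takes ubiquitin off histone H2A. Of 12 such genes and partners tested, 8 were lower, 1 was higher and 3 did not pass the test, with a median log2 fold change of -0.53, beside 33.6% of all tested genes lower and 34.7% higher. Those of smallest p were Hcfc1 (-1.70) and Asxl1 (-1.44), cofactors of the deubiquitinase BAP1, then Asxl3 (-1.20) and Mbd6 (-0.57). Ogt, the enzyme that adds N-acetylglucosamine to nuclear proteins, rose (0.86). Without replicate 1 of Ezh2 f/f, 2 genes of this list were higher. The HP1 chromobox genes, which read another histone methyl mark and share the Cbx name, gave 0 higher and 2 lower of 3, against the same background (Cbx1 at -0.71 and Cbx5 at -0.47, Cbx3 at -0.28 with no call). Cbx3 was called lower without replicate 2 of Ezh2 f/f (-0.49, adjusted p = 2.42e-04) and with DESeq2 size factors (adjusted p = 0.0491).

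Genes that PRC1 is known to hold silent were mostly near 0 counts in both groups. Of 18 such genes listed, only 10 were found in the count table, and the levels of the others are not known here. Of the 10 found, 2 passed the filter and 0 of these were called by edgeR, DESeq2 or limma, with 0 at an unadjusted p under 0.05. Cdkn2b, a cell cycle inhibitor of the Ink4 locus, had 25 and 15 counts in Ezh2 f/f, against 30 and 16 in Ezh2 cKO (log2 fold change 0.11, edgeR adjusted p = 0.823). Sox17, a factor of endoderm that endothelium also uses, had 120 and 84 counts in Ezh2 f/f, against 118 and 84 in Ezh2 cKO (log2 fold change -0.10, edgeR adjusted p = 0.706). The sign of both values turned when single libraries were left out. Cdkn2a had 12, 5, 8 and 3 counts in the same order and T, the brachyury gene, had 3, 2, 4 and 2, and the other 6 had at most 3 counts in any library. At such counts a fall or a small rise of these 8 genes was not detectable.

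The libraries differed in the markers of cell types, whose counts are to be read beside 34.7% of all tested genes higher and 33.6% lower. Of 15 astrocyte markers 13 were higher and 0 lower, their sum going from 1141 and 1158 CPM in Ezh2 f/f to 4372 and 3956 in Ezh2 cKO, among them Slc1a3 (log2 fold change 1.59), the target of the beads, Gfap (3.77) and Aqp4 (4.42), while Aldh1l1 (-0.15) had no call. Immature neuron markers gave 0 higher and 11 lower of 12, from 2528 and 2304 to 598 and 647 CPM, with Sox11 at -2.99. Cycling genes gave 0 higher and 13 lower of 18, from 304 and 289 to 179 and 171 CPM, with Mki67 at -1.0. Neural progenitor markers gave 3 higher and 7 lower of 12, with a median log2 fold change of -0.51. Their sum went from 628 and 678 CPM in Ezh2 f/f to 713 and 637 in Ezh2 cKO. Fabp7 alone went from 224 and 261 to 493 and 420 CPM, so the sum does not show the 7 falls. The members called lower, Cbx2, Pcgf2 and Phc1 among them, and the partner gene Auts2 fell in the libraries in which immature neuron and cycling markers fell. Cbx6 rose in those in which astrocyte, oligodendrocyte, precursor, microglia and pan-neuron markers rose. With 2 groups, any genes called in the same direction move in the same libraries, so a link was not tested by this.

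Markers of other cells were present as well. Pan-neuron markers gave 12 higher and 3 lower of 15, from 8439 and 9015 to 10305 and 10282 CPM, with a median log2 fold change of 1.33. Tubb3, at -0.71, was among the 3 that fell. So was Dcx, at -1.49, which is also on the immature neuron list and enters both counts and both sums. Oligodendrocyte precursor markers gave 8 higher of 8 (194 and 199 to 646 and 575 CPM), and oligodendrocyte markers 9 higher and 0 lower of 10 (92.6 and 107 to 898 and 774 CPM). Microglia markers gave 11 higher and 0 lower of 12 (110.2 and 112 to 346 and 292 CPM), and endothelial markers 3 higher and 1 lower of 10 (307 and 296 to 340.1 and 292 CPM). The share of endothelial markers called higher was thus near the 34.7% of all tested genes, and the share called lower was under their 33.6%. No marker was at 0 in all libraries. RNA of neuronal markers was present in every library, so the marker RNA of the bead-held cells was not that of astrocytes alone. In every library the 15 pan-neuron markers summed to more CPM than the 15 astrocyte markers. The astrocyte sums were 1141 and 1158 CPM in Ezh2 f/f, against 4372 and 3956 in Ezh2 cKO. CPM of different genes also depend on gene length. The PRC1 levels are thus levels in this mixed RNA, not in astrocytes alone. The part of these cell types in the PRC1 values was not tested.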

How the data were processed

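Cortical cells of 2 Ezh2 f/f and 2 Ezh2 cKO libraries were sequenced on an Illumina HiSeq. The authors deposited the count of reads per gene and library without normalization, and FPKM values. The deposited FPKM equal the count divided by 1 gene length and the library total for all 19461 genes counted in every library (tolerance 0.001). The submitters' processing notes name Bowtie2 2.2.3, TopHat2 2.0.12, HTSeq 0.6.0 and mm9, and use of strand is not given in the sources used here. Of 28799 genes with an identifier in GENCODE M21, 581 have the same coordinates in GRCm38, so gene coordinates are printed as deposited, and only promoters are on GRCm38.p6. Columns of the authors' own comparison (mean, fold change, p-values) were not used, and 0 columns had no sample.

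Counts were filtered with filterByExpr (16793 genes left), scaled by TMM and tested with edgeR 4.0.16 in R 4.3.3 by the quasi-likelihood test with group as the only term, with Benjamini-Hochberg adjustment over all tested genes and calls at an adjusted p under 0.05. The common biological coefficient of variation was 0.0953. The SE printed beside an edgeR fold change is the absolute log2 fold change divided by the square root of the F statistic. CPM use the TMM-adjusted library size. Replicates of a group differed beyond counting error (chi-square over its degrees of freedom 9.51 for the Ezh2 f/f pair, 6.13 for the other). Floors cover counting error only. Alternatives were DESeq2 1.42.0, its size factors, library totals alone, other filters, limma 3.58.1 on log2(FPKM + 1) and log2(FPKM + 0.1), a replicate block and leaving out each library. The edgeR, DESeq2 and limma tests were tested on simulated data in which far fewer genes changed than were called here. The exact permutation test was not.

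Named were the 9 members, Ezh2, the up to 4 genes of smallest p per direction in each related list, paralogue partners, silenced genes with more than 3 counts and a few defining markers. The members and lists were chosen with earlier results of these data known. Cbx3, Pcgf1, Pcgf3, Trmt1l, Apobec3, Dcx and Fabp7 were named after their values were seen. For Pcgf1 and Dcx only the main fit is given. Of the related genes, 1 is not reported here and was left out of the lists and family sums.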

Additional observations from a re-analysis of the deposited data

How the results depend on the processing

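Each result was recomputed under up to 13 alternatives, fewer where a filter left a gene out. Of the values for single genes, 469 kept their direction and side of the threshold, 15 lost the call with the direction kept, in Cbx7, Cbx8, Rnf2, Pcgf3, Phc3 and Scml2, and 2 gained one, both in Cbx3. Another 4 changed sign, none of them called in either fit: with 1 library left out, Cdkn2b (0.11 with all libraries) ran from -0.39 to 0.49 and Sox17 (-0.10 with all) from -0.35 to 0.11. The count of members called lower was 7 and ran from 6 to 7 with 1 library left out. It was lowest at 5 in limma on log2(FPKM + 1) without a filter. The count called higher was 1 with each library left out. Among counts and ratios, 179 values kept their direction, the counts staying within 1.5 times those reported, and 1 moved: the number of H2A deubiquitinase genes called higher, reported as 1, ran from 1 to 2 over the fits that left out a library. The cause was not tested. With all libraries kept, the count of other PRC1 genes called lower, reported as 19, ran from 13 to 20. That of H2A deubiquitinase genes called lower, reported as 8, ran from 6 to 8. With library totals alone the median log2 fold change of all tested genes was 0.10, against 0.02, and 55.1% of calls were higher, against 50.8%. The numbers in the labels are not said to pair the libraries, and there are only 2 pairs. Deviations of same-numbered libraries correlated at 0.136 over 12918 genes. With a replicate block, 5795 genes were higher and 5599 lower, and 7 members were lower and 1 higher. With 2 libraries a group and a common spread over genes, small changes such as that of Ring1 stay within the error.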
